A study of Arabidopsis thaliana with 8 samples.

Results

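The nuclear photosynthesis genes described here are 55 loci that encode the light-harvesting antennae, the photosystem subunits, the electron carriers, the chloroplast ATP synthase and the small subunit of Rubisco. They were chosen by locus identifier from their known products, out of the 33602 loci of the count tables. No cut-off on a measured value was used, but earlier results of these data were known at the time. They comprise 6 LHCA and 15 LHCB antenna genes, 12 genes of the photosystem I core, 10 genes of the photosystem II core and its oxygen-evolving part, 6 genes of electron transport, 2 of the ATP synthase and 4 RBCS genes. RNA was sequenced from whole 6-day-old Arabidopsis thaliana seedlings grown in short days. Wild-type Col-0 and pwr-2, a T-DNA insertion allele of POWERDRESS (PWR) in the Col-0 background, stayed at 23°C or spent 2 hours at 27°C after growth at 23°C, with 2 biological replicates in each of the 4 groups. All groups share the ecotype, the age and the day length, each replicate is a pool of seedlings, and pwr-2 is a single mutant line. Because whole seedlings were pooled, fewer green cells and less RNA per green cell cannot be told apart in any value below.

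Light absorbed by the LHCB proteins is passed to photosystem II, which splits water on its lumenal side with the help of the PSBO, PSBP and PSBQ proteins. Electrons then run through the cytochrome complex that holds the Rieske protein PETC, through plastocyanin (PETE) to photosystem I with its LHCA antenna, and through ferredoxin (FD2) to ferredoxin-NADP reductase (FNR), while the proton gradient drives the ATP synthase. NADPH and ATP feed the Calvin cycle, whose carboxylase Rubisco needs a small subunit encoded by the RBCS genes. The genes of this set lie in the nucleus, their partner subunits in the chloroplast genome, and transcription of the nuclear genes in green seedlings is known to follow light, the circadian clock and signals from the chloroplast. PWR encodes a SANT-domain protein known as a partner of a histone deacetylase.

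Total counts per library ran from 7379650 to 15733741, and all 55 genes passed the filter on low counts, so none was lost. The lowest count of any of them in any library was 92, for LHCB7. The 55 genes, which mark green tissue, took 11.6 to 18.6% of all counts, the lowest share in Col-0 replicate 1 at 23°C, and the summed root markers lay between 35.3 and 136 CPM (counts per 1000000 on TMM-scaled library sizes). PWR (AT3G52250; chromosome 3, 19376138 to 19383369) measured 57.1 and 75.3 CPM at 23°C and 43.1 and 81.7 CPM at 27°C in Col-0, against 15.5 and 11.3 CPM at 23°C and 11.9 and 20.1 CPM at 27°C in pwr-2, so every pwr-2 library lay below every Col-0 library. The share of counts on the 133 chloroplast loci ran from 0.0363 to 6.71% and was higher in replicate 1 than in replicate 2 of every group.

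Several antenna and Rubisco genes are near-identical copies, and how reads that fit more than one locus were counted, and whether strand was used, is not given in the sources used here. LHCB1.1, LHCB1.2 and LHCB1.3 lie side by side on chromosome 1 between 10472280 and 10479114 (TAIR10.1) and share 95.6 to 96.4% of their coding bases. LHCB1.4 and LHCB1.5 are neighbours on chromosome 2 from 14522524 to 14525918 with 91.4% identity, and RBCS1B, RBCS2B and RBCS3B are neighbours on chromosome 5 from 15376988 to 15385320 with 94.1 to 97.3%. The reads were 90 bases long. Of all 90-base windows of the coding sequence, 31.4% in RBCS3B, 30.9% in RBCS1B, 13.5% in LHCB2.2, 11.7% in LHCB1.1, 11.1% in LHCB2.1 and between 1.53 and 8.46% in LHCB1.2 to LHCB1.5 and RBCS2B also occurred in another member, and in the other 45 genes none did. The following stretches of 90 coding bases are read 5′ to 3′ on the coding strand. Each was chosen as the gap-free stretch of this length with the most differing bases in its pair. They let a reader see how few bases set these copies apart even where they differ most. Capitals mark the bases that differ within a pair. The first pair covers coding bases 169 to 258 and differs at 8 of them, the second covers bases 187 to 276 of LHCB1.4 and 184 to 273 of LHCB1.5 and differs at 12, and the third covers bases 50 to 139 and differs at 9.
LHCB1.1: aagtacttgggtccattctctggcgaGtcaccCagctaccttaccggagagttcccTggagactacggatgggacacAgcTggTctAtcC
LHCB1.3: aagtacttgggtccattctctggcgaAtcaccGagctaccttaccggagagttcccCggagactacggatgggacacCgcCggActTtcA
LHCB1.4: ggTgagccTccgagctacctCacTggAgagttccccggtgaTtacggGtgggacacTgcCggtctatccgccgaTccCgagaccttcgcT
LHCB1.5: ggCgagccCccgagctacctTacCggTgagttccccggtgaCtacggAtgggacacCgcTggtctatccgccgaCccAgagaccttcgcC
RBCS1B: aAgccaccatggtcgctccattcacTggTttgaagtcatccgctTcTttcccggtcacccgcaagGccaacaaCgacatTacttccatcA
RBCS3B: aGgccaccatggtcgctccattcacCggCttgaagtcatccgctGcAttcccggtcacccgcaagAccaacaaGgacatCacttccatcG

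Promoters of LHCB2.3, FNR2 and LHCB1.4 are shown, each the 250 bases before the annotated gene start, because the genes behind them carry the differences described below. LHCB2.3 was the gene lowest in replicate 2 against replicate 1, FNR2 the gene highest in it, and LHCB1.4 the gene with the largest fitted difference between pwr-2 and Col-0. Capitals mark the G-box (CACGTG) and the CCAATC element in LHCB2.3 and the AAAAATCT element known as the CCA1-binding site in LHCB1.4, and the window of FNR2 holds none of the motifs capitalised here. The windows are chr3:10255656-10255905 on the + strand for LHCB2.3, chr1:6942375-6942624 on the + strand for FNR2 and chr2:14524357-14524606 on the + strand for LHCB1.4, all in TAIR10.1 and credited to its RefSeq annotation.
LHCB2.3 promoter: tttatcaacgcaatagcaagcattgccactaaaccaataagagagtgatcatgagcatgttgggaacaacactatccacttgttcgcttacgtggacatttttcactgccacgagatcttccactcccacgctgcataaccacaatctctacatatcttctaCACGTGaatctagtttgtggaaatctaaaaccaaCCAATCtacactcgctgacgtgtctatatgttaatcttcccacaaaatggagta
FNR2 promoter: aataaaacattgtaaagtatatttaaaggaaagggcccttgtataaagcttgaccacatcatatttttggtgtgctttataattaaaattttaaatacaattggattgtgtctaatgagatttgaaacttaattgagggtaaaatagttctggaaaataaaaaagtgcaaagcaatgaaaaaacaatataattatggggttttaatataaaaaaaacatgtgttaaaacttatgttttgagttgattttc
LHCB1.4 promoter: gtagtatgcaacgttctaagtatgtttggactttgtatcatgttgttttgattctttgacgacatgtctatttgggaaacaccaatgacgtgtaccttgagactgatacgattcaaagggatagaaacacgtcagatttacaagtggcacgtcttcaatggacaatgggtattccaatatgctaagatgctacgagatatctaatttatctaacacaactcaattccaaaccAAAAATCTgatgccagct
Searched on both strands, the G-box was present in 11 of the 55 windows (20%). It was in 6.49% of the 27444 windows of the same length before annotated protein-coding genes of the nucleus. The I-box (GATAAG) was found in 13 of them (23.6%, against 12.3%) and CCAATC, bound by GLK factors, in 14 (25.5%, against 10.2%). The CCA1-binding site was in 5 (9.09%, against 6.69%), the evening element (AAAATATCT) in 2 (3.64%, against 2.36%) and TATAAA in 25 (45.5%, against 47.3%). The G-box, the I-box and CCAATC were thus found in a larger share of these promoters than of those of nuclear protein-coding genes, and TATAAA was not. Of the 7 genes called lower in replicate 2 below, 2 held the G-box and 3 held CCAATC. Of the 2 genes called higher, 1 held the G-box and 0 held CCAATC. A match describes letters in the window and nothing about a factor.

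Per kilobase of the deposited gene length, the abundant transcripts came from the Rubisco small subunit and the major antenna. RBCS1A (AT1G67090) stood highest at 14695 ± 5311 CPM per kb (mean ± SD over all 8 libraries), followed by LHCB1.3 (AT1G29930) at 12448 ± 2699, LHCB1.5 (AT2G34420) at 7247 ± 848 and RBCS3B (AT5G38410) at 5814 ± 1892. The SDs of RBCS1A and LHCB1.3 overlap, and so do those of LHCB1.5 and RBCS3B. These genes were measured in the same 8 libraries, so the overlap cannot say whether neighbours differ, and that was not tested. In the photosystem I core PSAG (AT1G55670), which sits at the edge of the complex, was highest (4395 ± 2349) and PSAE2 (AT2G20260), a copy of the ferredoxin-docking subunit, lowest (734 ± 269). In photosystem II the corresponding genes were PSBR (AT1G79040, 4390.3 ± 1442) and PSBQ1 (AT4G21280) of the oxygen-evolving part (1035 ± 268), and in electron transport the plastocyanin genes PETE2 (AT1G20340, 2592 ± 679.6) and PETE1 (AT1G76100, 193 ± 46.9). ATPD (AT4G09650) and ATPC1 (AT4G04640), the delta and gamma subunits of the ATP synthase, lay close together at 1245 ± 536 and 1124 ± 250.2. RBCS1B (AT5G38430) was the lowest of the 4 Rubisco genes (1811 ± 797).

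A few antenna genes were far below their families. LHCB4.3 (AT2G40100), a minor antenna gene, stood at 11.5 ± 2.87 CPM per kb and LHCB7 (AT1G76570), a rarely expressed member, at 19.1 ± 9.92, against 2606 ± 752 for LHCB4.1 (AT5G01530). Among the LHCA genes, LHCA1 (AT3G54890) was highest (3901 ± 793), while LHCA5 (AT1G45474, 107 ± 38.5) and LHCA6 (AT1G19150, 156 ± 43.9), which are known to tie photosystem I to the NDH complex, were the lowest and overlapped each other. In every library LHCA5 and LHCA6 lay below every other LHCA gene, and LHCB4.3 and LHCB7 below every other LHCB gene.

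**Figure D1:**
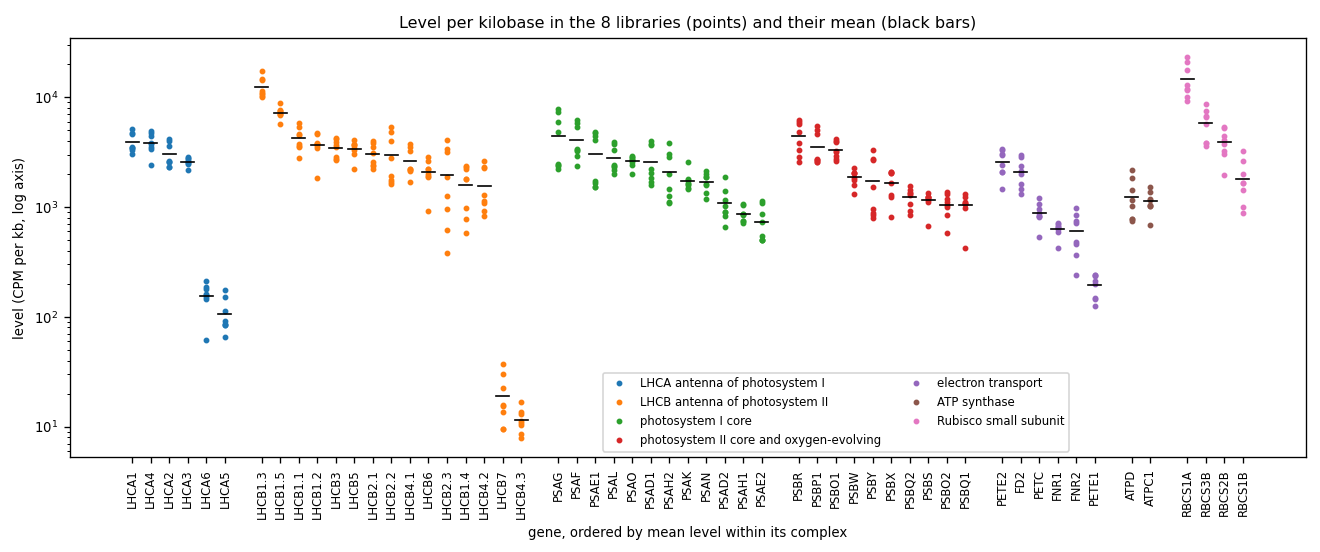
Level of each of the 55 genes in each of the 8 libraries (points, CPM per kb of deposited gene length, logarithmic axis) and their mean (black bars), by complex. The axis spans the complexes side by side, with RBCS1A (mean 14695) and LHCB1.3 (12448) at the top and LHCB7 (19.1) and LHCB4.3 (11.5) far below.

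Within the copies, the split between LHCB1.4 (AT2G34430) and LHCB1.5 varied more than their sum. LHCB1.4 took 7.42 and 9.20% of the counts of the pair at 23°C and 19.7 and 11.01% at 27°C in Col-0, against 22.2 and 28.5% at 23°C and 20.1 and 20.3% at 27°C in pwr-2. The 95% Wilson intervals, which cover counting error only, were narrow, such as 7.21 to 7.63% for Col-0 replicate 1 at 23°C and 28.2 to 28.7% for pwr-2 replicate 2 at 23°C. All pwr-2 libraries lay above all Col-0 libraries, though only narrowly so against Col-0 replicate 1 at 27°C. The sum of the pair was 7954 and 8534 CPM at 23°C and 9156 and 8956 CPM at 27°C in Col-0, against 9979 and 8403 CPM at 23°C and 11493 and 9015 CPM at 27°C in pwr-2, and the genotypes overlapped. Over the 8 libraries LHCB1.3 took 52.9 to 67.1% of LHCB1.1 (AT1G29920) to LHCB1.3, LHCB2.1 (AT2G05100) took 42.6 to 60.6% of LHCB2.1 and LHCB2.2 (AT2G05070), and RBCS1B took 10.3 to 17.9% of RBCS1B, RBCS2B (AT5G38420) and RBCS3B. Reads that fit both copies could enter either count, so these splits are uncertain where the windows above are shared.

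The first comparison asks how these genes differed by genotype at 23°C. Nearly all were higher in pwr-2 on average, by a median of 0.38 on the log2 scale, but none passed the test, and the difference lay in the first pair of replicates. The fitted fold change was above 0 in 50 of 55 genes, against 48.1% of all genes tested, whose median was -0.02. With a quasi-likelihood test in edgeR and a Benjamini-Hochberg adjusted p under 0.05, 0 of 55 genes were called, and so were 0% of the 19170 genes tested. At an unadjusted p under 0.05 there were 2 of 55, against 4.53% of all, and DESeq2 called 0 of 55 (all genes: 0.266%). In replicate pair 1 the median difference was 0.76 and in pair 2 it was 0.02. Without Col-0 replicate 1 at 23°C the median was 0.02 and 29 of 55 genes lay above 0, and without replicate 2 of that group the median was 0.72. In 31 of 55 genes pwr-2 was higher in both pairs (all genes: 24.9%), and in 14 both pwr-2 libraries lay above both Col-0 libraries (all genes: 13.4%).

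LHCB1.4, one of the genes for the major antenna trimer, had the largest fitted difference. It measured 590.0 and 785 CPM at 23°C and 1803 and 986 CPM at 27°C in Col-0, against 2213 and 2393 CPM at 23°C and 2312 and 1827 CPM at 27°C in pwr-2. Both pwr-2 libraries at 23°C lay above both Col-0 libraries at either temperature, and the log2 fold change at 23°C was 1.75 (standard error 0.57, adjusted p = 0.976). LHCB6 (AT1G15820), a minor antenna protein that links trimers to the core, measured 1087 and 2205 CPM at 23°C and 2387 and 2263 CPM at 27°C in Col-0, against 2622 and 3378 CPM at 23°C and 2649 and 3116 CPM at 27°C in pwr-2. It was lowest in Col-0 replicate 1 at 23°C, its libraries did not overlap between the genotypes at 23°C, and its log2 fold change there was 0.94 (standard error 0.64, adjusted p = 0.976). LHCB7 went the other way. It measured 16.2 and 38.9 CPM at 23°C and 10.003 and 31.6 CPM at 27°C in Col-0, against 9.96 and 16.5 CPM at 23°C and 14.3 and 23.9 CPM at 27°C in pwr-2, with a log2 fold change of -0.98 (standard error 0.29, adjusted p = 0.976) at 23°C, and the genotypes overlapped because replicate 1 of Col-0 lay below replicate 2 of pwr-2. Of all 55 genes, only LHCB4.3 at 23°C had both pwr-2 libraries (11.9 and 15.6 CPM) below those of Col-0 (18.3 and 18.9), against 13.9% of all genes. Its log2 fold change was -0.45 (standard error 0.28, adjusted p = 0.976).

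By complex, the ATP synthase genes had the largest median (0.83). ATPD measured 754 and 747 CPM at 23°C and 1382 and 721 CPM at 27°C in Col-0, against 2103 and 1128 CPM at 23°C and 1789 and 994 CPM at 27°C in pwr-2, both pwr-2 libraries at 23°C lay above both of Col-0, and the log2 fold change was 1.03 (standard error 0.57, adjusted p = 0.976). In the photosystem I core, 11 of 12 genes were higher in both pairs, with small differences from 0.09 for PSAK (AT1G30380), near the antenna contact, to 0.67 for PSAF (AT1G31330), which docks plastocyanin, and a median of 0.38. The value of PSAF, the gene not higher in both pairs, rested on single libraries. It ran from 0.0096 to 1.36 as each library was left out, lowest without replicate 1 and highest without replicate 2 of Col-0. PSAK ran from -0.063 to 0.29, and such ranges were not taken for the other genes of this core. The photosystem II genes had a median of 0.42, between -0.06 for PSBR and 0.74 for PSBQ1, and electron transport 0.36, between 0.20 for ferredoxin FD2 (AT1G60950) and 0.65 for plastocyanin PETE1. With each library left out, PSBQ1 ran from 0.18 to 1.34 and PETE1 from 0.36 to 0.98. The LHCA antenna had a median of 0.23 and ran from -0.12 for LHCA5 to 0.48 for LHCA6. The RBCS genes were split by replicate, with a median difference of 1.19 in pair 1 and -0.42 in pair 2, so that none was higher in both. Fitted values for them were 0.60 for RBCS1B, 0.60 for RBCS2B, 0.30 for RBCS1A and 0.19 for RBCS3B.

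**Figure D2:**
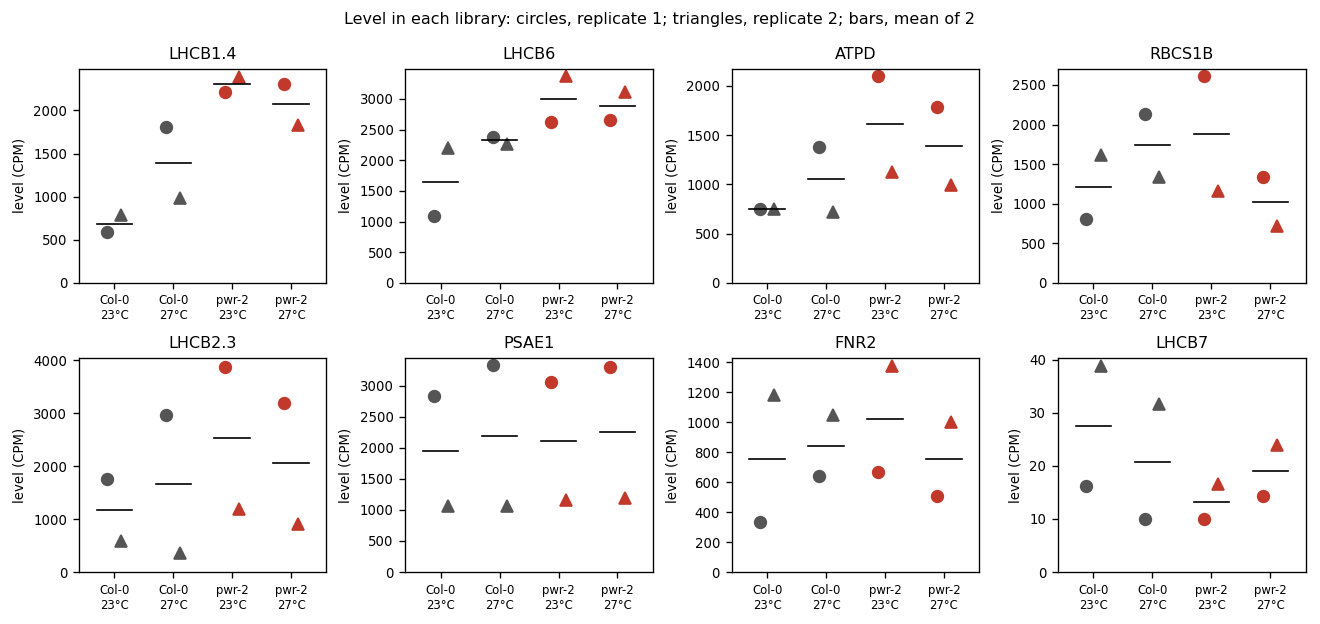
Level (CPM, linear axes from 0) of 8 genes in each library, circles for replicate 1, triangles for replicate 2 and bars for the mean of 2, grey for Col-0 and red for pwr-2. LHCB1.4 and LHCB6 are higher in both pwr-2 libraries than in both Col-0 libraries at each temperature, LHCB2.3 and PSAE1 are high in replicate 1 of every group, and FNR2 and LHCB7 in replicate 2.

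At 27°C the same comparison gave no common direction. Of 55 genes 25 lay above 0 (all genes: 49.1%), and the median log2 fold change was -0.04, against -0.01 over all genes. The edgeR test called 0 of 55, against 1.05% of the 19324 genes tested (0.828% higher and 0.217% lower), with 1 of 55 at an unadjusted p under 0.05 (all genes: 16.8%) and 0 of 55 in DESeq2 (all genes: 4.82%). In 4 genes both pwr-2 libraries lay above those of Col-0 (all genes: 19.9%) and in 7 below (all genes: 20.2%). The sign of the median rested on single libraries: it was 0.11 without replicate 1 and -0.10 without replicate 2 of Col-0, and -0.18 and 0.07 without those of pwr-2. Within both pairs pwr-2 was lower in 17 of 55 genes (all genes: 32.2%), among them all 4 RBCS genes, with a median of -0.50. RBCS1B measured 809.7 and 1612 CPM at 23°C and 2138 and 1332 CPM at 27°C in Col-0, against 2609 and 1161 CPM at 23°C and 1331 and 714 CPM at 27°C in pwr-2. At 27°C both pwr-2 libraries lay below both of Col-0, though 1331 and 1332 CPM nearly met, and the log2 fold change was -0.80 (standard error 0.32, adjusted p = 0.271). FD2 had the lowest value outside RBCS (-0.56, standard error 0.32, adjusted p = 0.459), LHCB2.3 (AT3G27690) the highest of all (0.70, standard error 0.41, adjusted p = 0.471), though this was 0.051 without Col-0 replicate 2 and 1.38 without its replicate 1, and LHCB1.4 again had both pwr-2 libraries above both of Col-0 (0.61, standard error 0.34, adjusted p = 0.440). The other extremes within a complex were small, from -0.37 for LHCA5 and -0.39 for PSAK to 0.25 for PSAH1 (AT3G16140), a docking subunit for mobile antenna, and 0.17 for PSBQ2 (AT4G05180). Markers of root cells were lower in pwr-2 at 27°C as well, 13 of 13 tested below 0 and 1 called, with a summed level of 122 and 136 CPM in Col-0 and 54.6 and 35.3 CPM in pwr-2, and their part in the values above was not tested.

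The next comparison is the response of Col-0 to 2 hours at 27°C. Here 53 of 55 genes were higher at 27°C in the fit, against 49.7% of all genes, with a median of 0.38 (all genes: 0.00), and again the difference lay in one pair. The median was 0.78 in pair 1 and -0.01 in pair 2. None of the 55 was called by edgeR (0% of 19386 genes), 0 of 55 had an unadjusted p under 0.05 (all genes: 3.9%), and DESeq2 called 0 of 55 (all genes: 0.191%). Both libraries at 27°C lay above both at 23°C in 13 genes (all genes: 9.35%) and below in 0 (all genes: 8.95%). Without Col-0 replicate 1 at 23°C the median was 0.03 and 31 of 55 genes lay above 0, without replicate 2 of that group the median was 0.73, and without replicate 1 at 27°C it was 0.23. LHCB1.4 had the largest value (0.96, standard error 0.50, adjusted p = 0.943) and LHCB7 the smallest (-0.50, standard error 0.23, adjusted p = 0.943). The RBCS genes had the largest median of a complex (0.62), led by RBCS2B, which measured 1699 and 3229 CPM at 23°C and 4587 and 3532 at 27°C (0.77, standard error 0.61, adjusted p = 0.943). Leading genes elsewhere were PSBQ1 (0.82), PSAD2 (AT1G03130), a copy of another ferredoxin-docking subunit (0.81), PETE2 (0.75) and LHCA6 (0.49). LHCA5 (0.07), PSAH1 (0.10) and PSBR (0.25) were lowest in their complexes. As each library was left out, the leading values ran from 0.49 to 1.43 for LHCB1.4, 0.044 to 1.52 for RBCS2B, 0.23 to 1.42 for PSBQ1, 0.34 to 1.31 for PSAD2 and 0.18 to 1.35 for PETE2.

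In pwr-2 the same shift gave small differences for most genes, with the lowest values in RBCS1B and a few antenna and electron transport genes. The median log2 fold change was -0.06 (all genes: 0.01), and 28 of 55 genes were lower at 27°C in both pairs (all genes: 31.2%), 9 higher in both (all genes: 33.3%). The edgeR test called 0 of 55, against 0.42% of the 19050 genes tested. At an unadjusted p under 0.05 there were 6 lower (all genes: 7.49%) and 2 higher (all genes: 10.6%), and DESeq2 called 1 of 55, RBCS1B (all genes: 3.39%). RBCS1B measured 2609 and 1161 CPM at 23°C and 1331 and 714 at 27°C in replicates 1 and 2. It was lower at 27°C within each pair (-0.97 and -0.70) while the temperatures overlapped across replicates, and the fitted value was -0.84 (standard error 0.13, adjusted p = 0.0632). Its adjusted p lay under 0.05 with no filter on low counts (0.0250) and with 10 or more counts demanded of each library (0.0411). So it did with nuclear genes alone (0.0345) and in DESeq2 (0.000949). It was 0.918 in one fit of all libraries and between 0.863 and 1 without the replicate block or with a library left out. The fold change itself was -0.32 and -1.27 without replicates 1 and 2 at 23°C, and -1.196 and -0.60 without those at 27°C. With near-identical copies summed RBCS1B had no value of its own, and no gene of this set was called (all genes: 0.368%). The other RBCS genes had -0.25 for RBCS1A, -0.18 for RBCS2B and -0.12 for RBCS3B.

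LHCB1.1 measured 6229 and 5334 CPM at 23°C and 4421 and 4177 at 27°C in pwr-2, with no overlap, and -0.43 (standard error 0.08, adjusted p = 0.0906). FNR2 (AT1G20020) measured 669 and 1375 and 507 and 1001 CPM (-0.43, standard error 0.13, adjusted p = 0.186) and FD2, its electron donor, 2360.1 and 1338 and 1771 and 1097 (-0.35, standard error 0.11, adjusted p = 0.210), each lower within both pairs and overlapping across replicates. LHCB7 had the highest value, with 9.96 and 16.5 CPM at 23°C and 14.3 and 23.9 at 27°C (0.53, standard error 0.16, adjusted p = 0.182), followed by LHCB1.5 (0.25) and PSAD2 (0.21). The median rested on single libraries: it was 0.05 and -0.11 without replicates 1 and 2 at 23°C, and -0.20 and 0.07 without those at 27°C. Values within the remaining complexes ran from -0.16 for LHCA5 to 0.19 for LHCA2 (AT3G61470), from -0.18 for PSBY (AT1G67740) to 0.14 for PSBS (AT1G44575), the protein of energy-dependent quenching, and were -0.21 for ATPD and -0.16 for ATPC1.

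The interaction of genotype and temperature, fitted over all 8 libraries, asks whether pwr-2 responded to 27°C differently from Col-0. The estimate was negative in 52 of 55 genes, meaning a lower response in pwr-2, against a median of -0.01 and 49.3% above 0 over all genes. The median over the 55 was -0.42, from -0.85 in pair 1 and -0.10 in pair 2, and 38 genes were lower in both pairs (all genes: 29.3%). The edgeR test called 0 of 55 (0% of 19936 genes), DESeq2 called 0 of 55 (all genes: 0.125%), and 1 of 55 had an unadjusted p under 0.05 (all genes: 4.59%), so no difference between the responses passed the test. Without Col-0 replicate 1 at 23°C the median was -0.09 with 12 of 55 above 0, and without replicate 2 of that group it was -0.79. The most negative estimates were those of RBCS1B (-1.25, standard error 0.79, adjusted p = 0.948), LHCB1.4 (-1.15, standard error 0.54, adjusted p = 0.948) and PSBQ1 (-0.93, standard error 0.55, adjusted p = 0.948), and the most positive was that of LHCB7 (1.004, standard error 0.40, adjusted p = 0.948). As each library was left out these ran from -2.37 to -0.46, -1.58 to -0.64, -1.59 to -0.42 and 0.67 to 1.42 in that order. PSAE1 (AT4G28750) was closest to 0 (-0.04, standard error 0.39, adjusted p = 0.994). The RBCS genes had the lowest median of a complex (-0.80) and the LHCA antenna the highest (-0.22).

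**Figure D3:**
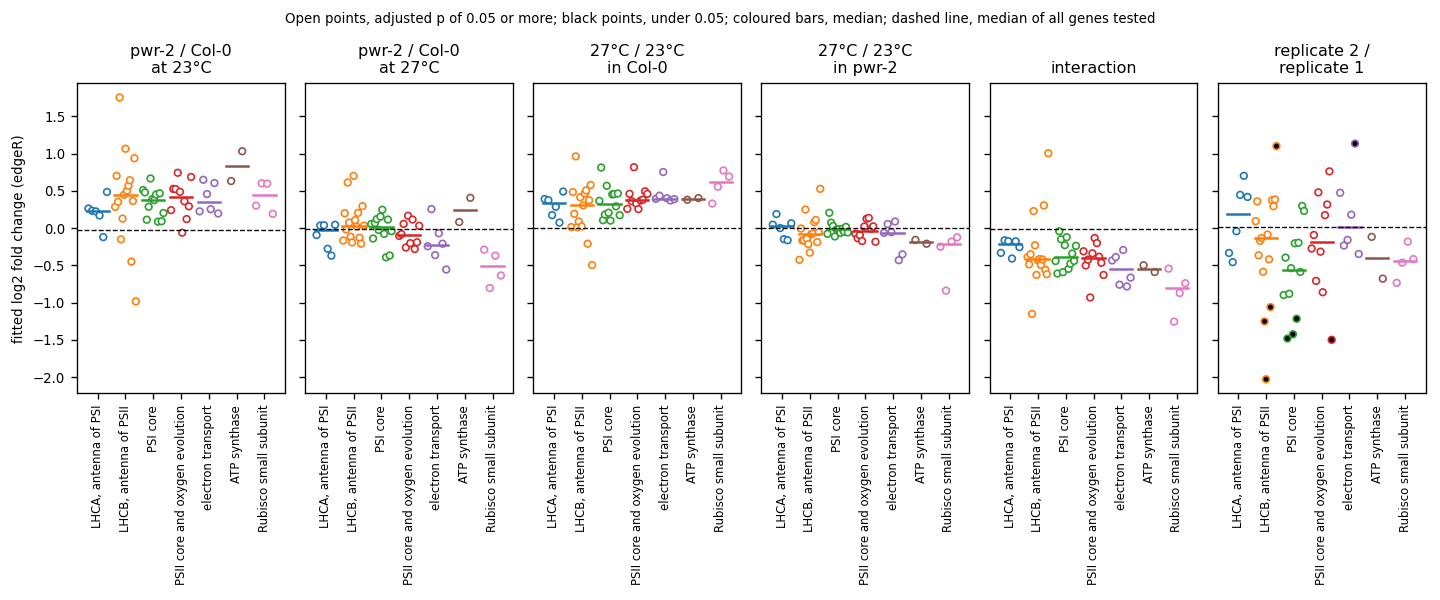
Fitted log2 fold change of the 55 genes in the 5 comparisons of the design and between replicates, by complex. Open points have an adjusted p of 0.05 or more, black points a lower one, coloured bars are medians and the dashed line is the median of all genes tested. Black points appear between the replicates alone (9 genes).

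The differences between the replicates were a comparison added after the data were seen. The labels call the replicates biological and do not say how they differed in day or batch, and what set them apart was not tested. The median size of the difference was 0.545 on the log2 scale between the single libraries of a group. Between group means of 2 libraries it was 0.292 for genotypes and 0.249 for temperatures. The replicate value was the largest of these in 44 of 55 genes (80.0%, against 66.3% of all genes). Single libraries vary more than means of 2, so these sizes do not show which factor had the larger effect. In the fit over all 8 libraries with the 4 groups as terms, edgeR called 9 of 55 genes, against 8.22% of 19936. Of these, 7 were lower in replicate 2 (all genes: 4.87%) and 2 higher (all genes: 3.35%). In 12 genes all 4 libraries of replicate 2 lay below all 4 of replicate 1 (all genes: 9.48%), and in 5 above (all genes: 10.5%). DESeq2 called 18 of 55 (all genes: 18%). The fitted difference was above 0 in 18 of 55 (all genes: 50.7%), with a median of -0.20. The calls depended on having every library: 7 of 55 were called without replicate 1 (all genes: 2.01%) and 4 without replicate 2 (all genes: 1.21%) of Col-0 at 23°C, and 0 of 55 without either replicate of Col-0 at 27°C, of pwr-2 at 23°C or of pwr-2 at 27°C, where edgeR called 0 of all genes too.

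Genes called lower in replicate 2 lay in the cores of both photosystems and in the LHCB antenna, and no LHCA gene was among them. LHCB2.3, of the mobile antenna pool, measured 1758 and 588 CPM at 23°C and 2969 and 364 CPM at 27°C in Col-0, against 3864 and 1181 CPM at 23°C and 3199.5 and 906 CPM at 27°C in pwr-2, and its log2 difference was -2.03 (standard error 0.32, adjusted p = 0.0322). Replicate 1 lay above replicate 2 in every group with no overlap across all 8 libraries, and the difference within groups was -1.58 at 23°C and -3.03 at 27°C for Col-0 and -1.71 at 23°C and -1.82 at 27°C for pwr-2. LHCB2.2 behaved alike with a smaller difference (-1.25, standard error 0.26, adjusted p = 0.0447), while LHCB2.1, which shares windows with it, was -0.59 (standard error 0.22, adjusted p = 0.132). PSAE1 measured 2826 and 1068 CPM at 23°C and 3330.0 and 1060.5 CPM at 27°C in Col-0, against 3065 and 1161 CPM at 23°C and 3302 and 1195 CPM at 27°C in pwr-2, with little difference within a replicate number and no overlap between the numbers (-1.48, standard error 0.20, adjusted p = 0.0263). PSAG (-1.42, standard error 0.23, adjusted p = 0.0325), PSAH2 (AT1G52230), the docking subunit for mobile antenna (-1.22, standard error 0.24, adjusted p = 0.0422), PSBY, a small photosystem II protein (-1.50, standard error 0.24, adjusted p = 0.0324), and LHCB4.2 (AT3G08940) of the minor antenna (-1.06, standard error 0.22, adjusted p = 0.0453) were the other genes called. PSAE2 stayed just outside (-0.88, standard error 0.20, adjusted p = 0.0504). In the photosystem I core 10 of 12 genes were below 0, with a median of -0.56.

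FNR2 and LHCB7 went the other way. FNR2, which reduces NADP at the end of the chain, measured 334 and 1179 CPM at 23°C and 639 and 1044 CPM at 27°C in Col-0, against 669 and 1375 CPM at 23°C and 507 and 1001 CPM at 27°C in pwr-2, each replicate 2 above every replicate 1, with a log2 difference of 1.13 (standard error 0.24, adjusted p = 0.0483). Its copy FNR1 (AT5G66190) was 0.18 (standard error 0.21, adjusted p = 0.576). LHCB7, whose values are given above, was 1.0999 (standard error 0.20, adjusted p = 0.0380), with differences within groups of 1.25 at 23°C and 1.64 at 27°C for Col-0 and 0.72 at 23°C and 0.74 at 27°C for pwr-2. Values also differed between copies of one subunit: LHCB4.1 was -0.42, LHCB4.2 -1.06 and LHCB4.3 0.37, and PSBQ1 0.48 and PSBQ2 -0.32, and the difference between copies was not tested. Over the 55 genes 16 were lower in replicate 2 in all 4 groups (29.1%, all genes 20.7%) and 8 higher (14.5%, all genes 21.9%).

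**Figure D4:**
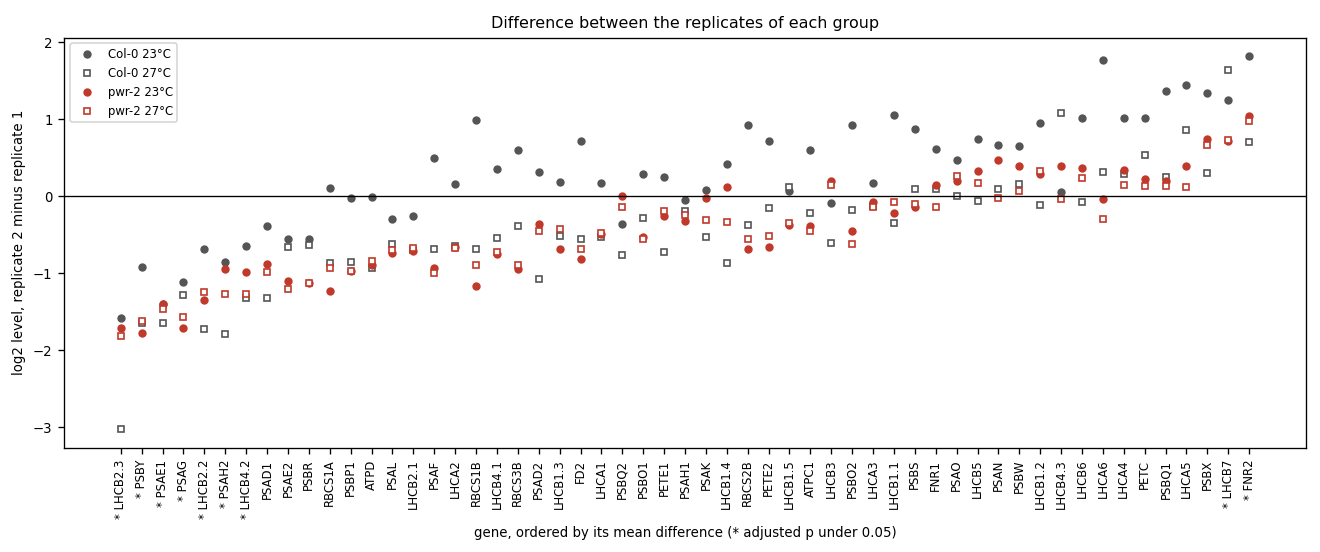
Log2 level of replicate 2 minus that of replicate 1 in each group, for the 55 genes in the order of their mean difference, with an asterisk for an adjusted p under 0.05. LHCB2.3 to LHCB4.2 are below 0 in every group and FNR2 and LHCB7 above 0 in every group, while the filled grey points of Col-0 at 23°C lie above those of the other groups for many genes.

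The pattern over genes of the replicate difference was alike in the 4 groups. Genes are not independent of each other, so the following is a description. Pearson's r of the replicate difference between groups was 0.731 to 0.967 across the 55 genes and 0.260 to 0.655 across 19844 nuclear genes. For the nuclear genes, the higher values (0.655 and 0.610) joined groups of one genotype. Groups of different genotypes gave 0.260 to 0.332. Col-0 at 23°C stood apart from the other groups in level. The median of the 55 genes relative to their own means, on the log2 scale, stood at -0.47 and -0.10 at 23°C and 0.31 and -0.10 at 27°C in Col-0, against 0.34 and -0.13 at 23°C and 0.28 and -0.17 at 27°C in pwr-2. Replicate 1 was thus the lowest library of all in Col-0 at 23°C, and above replicate 2 in the other 3 groups, while the 4 libraries of replicate 2 lay within a narrow range.

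**Figure D5:**
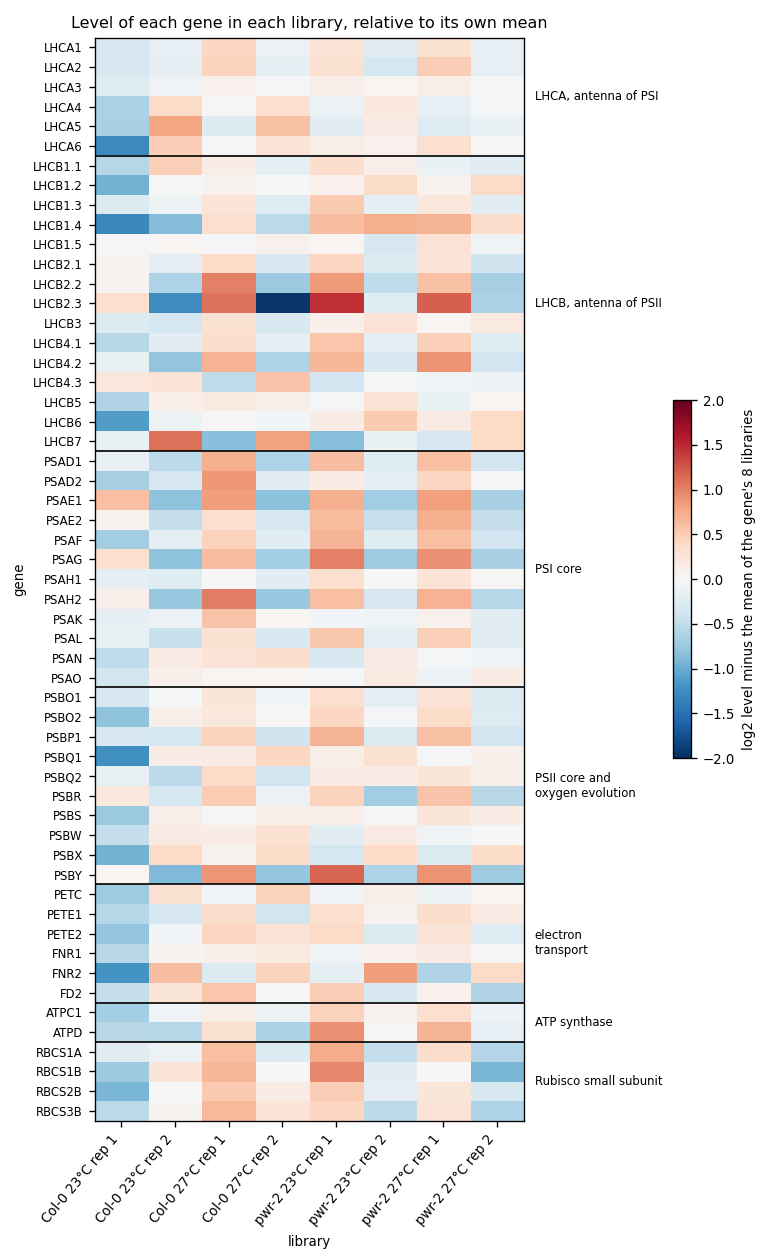
Log2 level of each of the 55 genes in each library minus the mean of its 8 libraries, red for higher and blue for lower, by complex. The column of Col-0 replicate 1 at 23°C is blue for most genes (median -0.47) and the other columns of replicate 1 mostly red (medians 0.34, 0.31 and 0.28).

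The 15 genes not described singly were LHCA3 (AT1G61520), LHCA4 (AT3G47470), LHCB1.2 (AT1G29910), LHCB3 (AT5G54270) and LHCB5 (AT4G10340) of the antennae, PSAD1 (AT4G02770), PSAL (AT4G12800), PSAN (AT5G64040) and PSAO (AT1G08380) of photosystem I, PSBO1 (AT5G66570), PSBO2 (AT3G50820), PSBP1 (AT1G06680), PSBW (AT2G30570) and PSBX (AT2G06520) of photosystem II, and PETC (AT4G03280). Their mean levels ran from 886 (PETC) to 3857 (LHCA4) CPM per kb, and none passed the edgeR test in any of the 6 comparisons. Their log2 fold changes of pwr-2 against Col-0 ran from 0.09 (PSAN) to 0.70 (LHCB1.2) at 23°C and from -0.37 (PSAN) to 0.20 (LHCB1.2) at 27°C. Between temperatures they ran from 0.17 (PSAO) to 0.49 (PSBX) in Col-0 and from -0.19 (LHCB5) to 0.02 (PSBX) in pwr-2, the interaction estimates from -0.56 (LHCB5) to -0.18 (LHCA3), and the differences between replicates from -0.90 (PSAD1) to 0.76 (PSBX). All of these ranges lay inside those of the genes described above.

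Other measures moved with the replicate number, and their part in the differences above was not tested. Chloroplast loci took the following shares of all counts, namely 6.71% and 0.294% at 23°C and 1.28% and 0.394% at 27°C in Col-0, against 6.46% and 0.0363% at 23°C and 3.28% and 2.11% at 27°C in pwr-2. All 15 of 15 listed chloroplast-encoded photosynthesis loci were below 0 in replicate 2 against replicate 1, 2 of them called (all genes: 4.87% called lower), while the nuclear partners described here had a median of -0.20. Of 11 clock genes, 8 were above 0 and 4 were called higher in replicate 2 (all genes: 3.35%). TOC1, an evening gene, measured 34.4 and 112 CPM at 23°C and 27.9 and 101 CPM at 27°C in Col-0, against 34.8 and 65.0 CPM at 23°C and 32.8 and 45.6 CPM at 27°C in pwr-2 (1.24, standard error 0.27, adjusted p = 0.0489), and PRR5 (1.62, standard error 0.27, adjusted p = 0.0342), ELF3 (1.302, standard error 0.17, adjusted p = 0.0263) and ELF4 (1.404, standard error 0.17, adjusted p = 0.0260), all of the afternoon and evening, were the others. The morning genes CCA1 (-0.32, standard error 0.24, adjusted p = 0.398) and LHY (-1.05, standard error 0.31, adjusted p = 0.0884) did not pass the test. TOC1, ELF3 and ELF4 were higher in every replicate 2 than in any replicate 1. So were FNR2 and LHCB7, and so were 10.5% of all genes. A link of FNR2 or LHCB7 to the clock genes was not tested. GLK1, a factor known to switch on antenna and chlorophyll genes, measured 185 and 66.2 CPM at 23°C and 286 and 76.4 CPM at 27°C in Col-0, against 372 and 245 CPM at 23°C and 292 and 203 CPM at 27°C in pwr-2. It was lower in replicate 2 of every group (-1.13, standard error 0.29, adjusted p = 0.0647) and higher in both pwr-2 libraries than in both Col-0 libraries at 23°C (1.44, standard error 0.43, adjusted p = 0.976). GLK2 was -0.37 (standard error 0.17, adjusted p = 0.201) between replicates and 0.45 (standard error 0.37, adjusted p = 0.976) between genotypes at 23°C. Of the other markers listed, 3 of 9 seed storage genes were lower in replicate 2 at an adjusted p under 0.05 (all genes: 4.87%), and no root or epidermal marker was called. The summed root markers were 55.5 CPM and 119 CPM at 23°C and 122 CPM and 136 CPM at 27°C in Col-0, against 127 CPM and 71.5 CPM at 23°C and 54.6 CPM and 35.3 CPM at 27°C in pwr-2.

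Genes that work beside these complexes were described with the same fits. Genes of chlorophyll synthesis, 26 in number, make the pigment that the antenna proteins bind. None was called by edgeR in the genotype or temperature comparisons, the interaction or between replicates. At an unadjusted p under 0.05 there were 2 and 0 between genotypes at 23°C and 27°C (all genes: 4.53% and 16.8%). Between temperatures there were 0 in Col-0 and 7 in pwr-2 (all genes: 3.9% and 18.1%). The interaction had 1 (all genes: 4.59%) and the replicates 2 (all genes: 31.4%). At 23°C 23 of 26 were higher in pwr-2, with a median of 0.56 from 1.24 in pair 1 and -0.10 in pair 2. PORB, which reduces protochlorophyllide in the light, measured 218 and 379 CPM at 23°C and 443 and 274 CPM at 27°C in Col-0, against 715 and 1285 CPM at 23°C and 522 and 787 CPM at 27°C in pwr-2. Both pwr-2 libraries lay above both Col-0 libraries at each temperature, with log2 fold changes of 1.73 (standard error 0.46, adjusted p = 0.976) at 23°C and 0.87 (standard error 0.40, adjusted p = 0.356) at 27°C. In pwr-2, 23 of 26 were lower at 27°C than at 23°C (all genes: 50.9% above 0), with a median of -0.24 and similar values in both pairs (-0.25 and -0.23). Of 17 Calvin cycle genes, none was called in any of these comparisons. The median was 0.38 for pwr-2 against Col-0 at 23°C (1.04 and -0.25 in the pairs), 0.29 for 27°C against 23°C in Col-0, where all 17 were above 0, and -0.24 in pwr-2, where 14 of 17 were below 0. Both lists were measured in the same 8 libraries as the 55 genes and are no independent check of them.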

How the data were processed

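RNA of 8 libraries was sequenced as paired-end reads of 90 bases. The authors removed ribosomal reads, aligned the rest to TAIR10 and counted fragments per gene, and the submitters' processing notes name TopHat2 2.1.0, Bowtie2 2.1.0 and featureCounts 1.4.5. Values used here are the raw counts deposited by the authors in a table for each temperature, with the deposited gene length as the basis of values per kb. A deposited table of normalized values was not used.

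Counts were scaled by TMM, filtered by filterByExpr and tested by quasi-likelihood in edgeR 4.0.16 (R 4.3.3), with Benjamini-Hochberg adjustment over all genes and the replicate number as a block, since the study accounts for a batch between replicates. As a check, the replicate differences over 19844 nuclear genes were correlated between groups. For the 23°C and 27°C groups of one genotype, r reached 0.655 (Col-0) and 0.610 (pwr-2). Groups of different genotypes gave only 0.260 to 0.332. The pairing behind the block was thus weaker for pwr-2 against Col-0 than for the temperatures. Pairwise comparisons used their own 4 libraries, the interaction all 8. The standard error is the fold change divided by the square root of F. The comparison of replicates was added after the data were seen. Log2 levels used a prior count of 2. With the block, a shift shared by all libraries of a replicate number is taken out. P-values of the genotype and temperature comparisons therefore weigh a difference against its agreement between the replicate pairs, with information shared across genes. They do not measure the full spread between replicates. The scripts were tested on simulated data. Alternatives were DESeq2 1.42.0, other normalizations and filters, nuclear genes alone, copies summed, no block, all libraries in one fit, and each library left out, fitted over the other 7 libraries with a lone replicate assumed to vary like the rest. All 55 genes matched the RefSeq annotation of TAIR10.1, the source of positions and sequences. The genes, lists and tests were chosen with earlier results of these data known. Named are the genes called, the extremes of each complex in each comparison and in level, copies, PWR, called genes of the lists, GLK1, GLK2, CCA1, LHY and TOC1. LHCB6, PORB, PIF3, CGA1, HY5 and the dark-inducible genes, and further copies of named genes, were picked after their values were seen. Figures were drawn with matplotlib 3.10.9.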

Additional observations from a re-analysis of the deposited data

How the results depend on the processing

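Among the 55 genes no call was made between genotypes, between temperatures in Col-0 or in the interaction under any alternative. For 27°C against 23°C in pwr-2 the count of 0 became 2 with no filter on low counts, 1 with at least 10 counts in every library, 1 with nuclear genes alone and 1 in DESeq2, of which RBCS1B was one each time. Between replicates the 9 calls became 18 in DESeq2, 7 to 10 under the other normalizations and filters, with nuclear genes alone and with copies summed, and ran from 0 to 7 as each library was left out. Without the replicate block no gene at all was called in the pairwise comparisons or the interaction, the median of the 55 genes was 0.39 at 23°C between genotypes, PSBR was 0.019 there and LHCA5 -0.033 between temperatures in Col-0, both of opposite sign to the blocked value. Leaving out each library gave medians from -0.18 to 0.11 for pwr-2 against Col-0 at 27°C and from -0.20 to 0.066 for 27°C against 23°C in pwr-2, so that the sign changed. Ranges of single genes were taken only for genes called and for the extremes of each complex in a comparison. Further genes changed sign and are not listed. Those among the extremes that changed sign as each library was left out had these ranges, none of them called with every library. For pwr-2 against Col-0 at 23°C they were LHCA6 -0.37 to 1.39, LHCA5 -0.58 to 0.38, PSAK -0.063 to 0.29, PSBR -0.24 to 0.15, FD2 -0.47 to 0.91, RBCS1B -0.32 to 1.57 and RBCS3B -0.44 to 0.87. For the same at 27°C they were LHCA6 -0.44 to 0.53, LHCA5 -0.74 to 0.031, LHCB5 -0.43 to 0.045, PSBQ2 -0.12 to 0.48, PETE1 -0.061 to 0.60 and ATPC1 -0.13 to 0.31. For 27°C against 23°C in Col-0 they were LHCA6 -0.39 to 1.41, LHCA5 -0.40 to 0.59, PSAH1 -0.0023 to 0.22, FNR2 -0.078 to 0.84, ATPD -0.036 to 0.85, ATPC1 -0.095 to 0.87 and RBCS1A -0.23 to 0.90. For the same in pwr-2 they were LHCA5 -0.56 to 0.21, PSAF -0.44 to 0.19, PSBS -0.063 to 0.37, PSBY -0.37 to 0.017, FNR1 -0.12 to 0.30, ATPC1 -0.39 to 0.055 and RBCS3B -0.48 to 0.27. For the interaction they were LHCA2 -0.60 to 0.21, PSAE1 -0.15 to 0.077 and PSBR -0.35 to 0.060. Over all genes, the calls between genotypes at 27°C were 202 by the fit described and 0 with upper-quartile normalization, in one fit of all libraries or with a library left out, 700 with no filter, 380 with at least 10 counts and 931 in DESeq2. Those between temperatures in pwr-2 were 80, and 36 with upper-quartile normalization, 0 in one fit of all libraries or with a library left out, 685 with no filter, 416 with at least 10 counts, 586 with nuclear genes alone and 645 in DESeq2. Those between replicates were 1639, and 3584 in DESeq2, 409 and 247 without Col-0 replicates 1 and 2 at 23°C and 0 without any other library. The comparisons with 0 calls had 51 (genotypes at 23°C), 37 (temperatures in Col-0) and 25 (interaction) in DESeq2, and the interaction 223 without Col-0 replicate 2 at 23°C. The cause of these changes was not tested. With 2 replicates a group, each call rests on few libraries.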

Other observations

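Regulators of these genes, of which 19 were tested, gave no call by edgeR in any comparison, while 10 of them were lower in pwr-2 at 27°C in both pairs (all genes: 32.2%). HY5, which promotes light-induced genes, measured 11.1 and 22.9 CPM at 23°C and 12.6 and 26.4 CPM at 27°C in Col-0, against 8.34 and 11.6 CPM at 23°C and 8.76 and 11.3 CPM at 27°C in pwr-2, and both pwr-2 libraries lay below both Col-0 libraries at 27°C (-0.89, standard error 0.30, adjusted p = 0.213). CGA1, a GATA factor of greening, measured 9.80 and 39.6 CPM at 23°C and 11.4 and 45.1 CPM at 27°C in Col-0, against 10.5 and 4.16 CPM at 23°C and 8.52 and 6.41 CPM at 27°C in pwr-2. Its high values were those of replicate 2 of Col-0 at either temperature, and the fitted values were -1.60 (standard error 0.98, adjusted p = 0.976) at 23°C and -1.63 (standard error 0.58, adjusted p = 0.225) at 27°C. PIF3, a phytochrome-interacting factor, was highest in Col-0 replicate 1 at 23°C (79.0 and 19.7 CPM in the replicates of that group) and at 27°C higher in pwr-2 (42.9 and 31.1) than in Col-0 (17.0 and 17.9), with 1.06 (standard error 0.27, adjusted p = 0.124).

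Proteins related to the antenna that protect against excess light gave calls for ELIP1 alone in the comparisons of genotype and temperature. ELIP1, an early light-induced protein, measured 343 and 23.2 CPM at 23°C and 33.4 and 20.0 CPM at 27°C in Col-0, against 42.7 and 20.9 CPM at 23°C and 278 and 75.8 CPM at 27°C in pwr-2. At 27°C both pwr-2 libraries lay above both Col-0 libraries (2.48, standard error 0.37, adjusted p = 0.0456), and within pwr-2 both libraries at 27°C lay above both at 23°C (2.28, standard error 0.25, adjusted p = 0.0497), while in Col-0 the high library was replicate 1 at 23°C. The call within pwr-2 was lost without the replicate block, in one fit of all libraries and without any one of the 4 libraries compared, where edgeR called no gene at all. ELIP1 was 1 gene called of 15 on that list, where edgeR called 1.05% of all genes. Between replicates LIL3:2 (1.02, standard error 0.17, adjusted p = 0.0336), which stabilises enzymes of chlorophyll synthesis, and TAP38 (0.70, standard error 0.14, adjusted p = 0.0442), a phosphatase of the antenna, were higher in replicate 2.

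Of 5 genes known to rise in the dark or with sugar starvation, none was called between replicates, 3 were above 0 and 2 below. ASN1 measured 11.01 and 233 CPM at 23°C and 11.5 and 323 CPM at 27°C in Col-0, against 5.30 and 11.1 CPM at 23°C and 8.43 and 5.24 CPM at 27°C in pwr-2 and DIN10 14.6 and 561 CPM at 23°C and 21.5 and 615 CPM at 27°C in Col-0, against 9.96 and 30.4 CPM at 23°C and 8.76 and 11.6 CPM at 27°C in pwr-2. For both, the high libraries were Col-0 replicate 2 at 23°C and at 27°C. SEN1 (-0.44 at 23°C and 1.25 at 27°C for replicate 2 minus replicate 1 of Col-0, log2) and DIN11 (-4.32 and 0.35) did not share this order. DIN2 had another order (91.7 and 9.27 CPM at 23°C and 2.25 and 6.59 CPM at 27°C in Col-0, against 6.39 and 42.5 CPM at 23°C and 33.1 and 108 CPM at 27°C in pwr-2) and was higher in pwr-2 at 27°C (3.95, standard error 0.29, adjusted p = 0.0217). At 27°C 9 of 15 chloroplast-encoded photosynthesis loci were higher in pwr-2 at an adjusted p under 0.05, with a median of 2.67, beside a median of -0.04 for the 55 nuclear genes, and the root marker CASP1 was lower (-1.89, standard error 0.29, adjusted p = 0.0467). Over all genes edgeR called 0.828% higher and 0.217% lower in this comparison, and with upper-quartile normalization, without the replicate block, with all libraries in one fit or without any one of its 4 libraries it called none, so the calls named here at 27°C were lost there.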
